A study of Mus musculus with 2 samples.

Results

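The genes that make, load, take up and break down GABA and glycine, the inhibitory transmitters of the brainstem, were followed across the cell classes of the ventral parafacial region. The set holds 8 genes grouped by function, *Slc32a1*, *Gad1*, *Gad2*, *Slc6a5*, *Slc6a9*, *Slc6a11*, *Slc6a13* and *Abat*, though chosen with earlier results of these data known. All 8 were found by symbol among the 28692 genes counted in both libraries. Single cells were dissociated from the ventral parafacial region, the part of the brainstem that holds the chemoreceptors of the retrotrapezoid nucleus, and were captured on the 10X Genomics platform with 3′ version 2 chemistry. Each library pooled 8 C57BL6/J mice, 4 male and 4 female, at 10 days of age. The untreated library came from mice with no treatment and the 4OH-tamoxifen library from mice given 0.2 mg of 4OH-tamoxifen daily for 3 days, with no transgene named in the labels of either. The labels also give the untreated library as batch 1 and the 4OH-tamoxifen library as batch 2, so treatment and batch cannot be told apart, and with 1 library per condition no difference between them could be tested.

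GABA is made from glutamate by the decarboxylases GAD67 (*Gad1*) and GAD65 (*Gad2*), and both GABA and glycine are loaded into synaptic vesicles by the vesicular transporter VGAT (*Slc32a1*). The plasma membrane transporter GlyT2 (*Slc6a5*) refills glycinergic terminals, GlyT1 (*Slc6a9*) clears glycine largely into astrocytes, and GAT3 (*Slc6a11*) and GAT2 (*Slc6a13*) clear GABA into astrocytes and into cells of the brain's borders, respectively. GABA transaminase (*Abat*) starts the breakdown of GABA in mitochondria. Many inhibitory neurons of the lower brainstem and spinal cord are known to release both transmitters, for which a cell needs a GAD enzyme, GlyT2 and VGAT together.

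The promoter windows of 6 of the genes are shown because 4 of them were detected in the same neurons and the other 2 marked different non-neuronal cells. They come from RefSeq on GRCm38.p6, on the plus strand, 250 bases before and 50 after an annotated start, and capitals mark matches to CACCTG or TATAAA on either strand.
*Slc32a1*, chr2:158610508-158610807: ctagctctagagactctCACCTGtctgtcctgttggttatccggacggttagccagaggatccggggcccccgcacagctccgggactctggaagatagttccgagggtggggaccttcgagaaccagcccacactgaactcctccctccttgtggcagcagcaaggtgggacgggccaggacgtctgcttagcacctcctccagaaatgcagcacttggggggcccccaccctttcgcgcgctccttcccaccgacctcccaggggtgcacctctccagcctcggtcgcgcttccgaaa
*Gad1*, chr2:70561879-70562178: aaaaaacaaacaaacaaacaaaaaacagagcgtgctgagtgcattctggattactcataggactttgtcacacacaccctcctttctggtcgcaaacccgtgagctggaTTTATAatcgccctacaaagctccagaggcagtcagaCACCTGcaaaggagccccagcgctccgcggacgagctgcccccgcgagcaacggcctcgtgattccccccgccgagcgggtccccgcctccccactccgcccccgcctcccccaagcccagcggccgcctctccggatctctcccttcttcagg
*Gad2*, chr2:22622077-22622376: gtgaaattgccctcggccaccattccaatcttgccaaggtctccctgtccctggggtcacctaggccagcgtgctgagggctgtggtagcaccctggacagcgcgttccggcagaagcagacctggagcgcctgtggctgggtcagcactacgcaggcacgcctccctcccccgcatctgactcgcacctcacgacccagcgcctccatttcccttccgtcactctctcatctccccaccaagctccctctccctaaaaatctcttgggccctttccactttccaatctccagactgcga
*Slc6a5*, chr7:49910049-49910348: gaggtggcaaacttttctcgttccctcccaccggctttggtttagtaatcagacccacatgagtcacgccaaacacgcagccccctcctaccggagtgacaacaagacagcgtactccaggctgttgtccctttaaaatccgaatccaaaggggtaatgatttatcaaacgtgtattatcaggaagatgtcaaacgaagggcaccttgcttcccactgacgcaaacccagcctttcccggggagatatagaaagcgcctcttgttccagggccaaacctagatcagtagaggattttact
*Slc6a11*, chr6:114130991-114131290: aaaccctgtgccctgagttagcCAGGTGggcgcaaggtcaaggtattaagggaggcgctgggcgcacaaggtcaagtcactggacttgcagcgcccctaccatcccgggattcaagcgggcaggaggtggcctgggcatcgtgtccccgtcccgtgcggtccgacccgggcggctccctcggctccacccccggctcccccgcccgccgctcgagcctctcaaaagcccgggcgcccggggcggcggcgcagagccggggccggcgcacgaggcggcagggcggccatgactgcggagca
*Slc6a13*, chr6:121300038-121300337: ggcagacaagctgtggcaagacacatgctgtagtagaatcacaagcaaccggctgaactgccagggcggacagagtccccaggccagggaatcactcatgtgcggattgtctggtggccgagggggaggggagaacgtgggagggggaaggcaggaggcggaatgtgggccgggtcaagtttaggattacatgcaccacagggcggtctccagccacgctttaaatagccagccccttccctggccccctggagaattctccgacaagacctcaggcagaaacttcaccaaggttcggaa
Where the table gave several starts, the one nearest to the start of the gene in GENCODE was taken, and *Slc6a9* (1 of 3 starts) was searched as well. CACCTG, an E-box sequence, lay in the windows of *Slc32a1* (first base at -233 from the start), *Gad1* (-104) and *Slc6a11* (-228, as its reverse complement), and it was in 20.2% of all 32851 mouse windows of this length. TATAAA was found in *Gad1* alone (-141, as its reverse complement) and in 13.6% of all windows. Neither CAGCTG (16.3% of all windows) nor TAATTA (5.29%) was in any of the 7 windows. The GC content ran from 49.7% in *Slc6a5* to 72.3% in *Slc6a11*, against a median of 52.7% over all windows. On GRCm38 the genes span chr2:158610767-158615748 (*Slc32a1*), chr2:70553072-70602014 (*Gad1*), chr2:22622205-22693874 (*Gad2*), chr7:49910146-49963856 (*Slc6a5*), chr4:117834506-117875198 (*Slc6a9*), chr6:114131241-114249952 (*Slc6a11*), chr6:121300227-121337733 (*Slc6a13*) and chr16:8513429-8621568 (*Abat*), and the *Gad1* window lies inside the annotated span of its gene.

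After removal of doublets and poor cells, 3339 of 3767 untreated and 8558 of 10241 4OH-tamoxifen barcodes were kept, with medians of 3628 and 2411 unique molecules (UMIs) per cell, and 32 barcode sequences occurred in both libraries. Cells were assigned to classes by exclusive marker gates, with at least 3 UMIs of *Snap25* for neurons or 2 UMIs of *Aqp4*, *Pdgfra*, *Mog*, *C1qa* or *Cldn5*, which mark astrocytes, oligodendrocyte precursors, oligodendrocytes, microglia and endothelium. Neurons were divided by 1 UMI of *Slc17a6* (glutamatergic) or *Chat* (cholinergic), and neurons with neither are called other neurons. The gates took in 7769 of 11897 cells, among them 470 neurons. Every gene of the 5- or 6-gene marker panels that have a class, which include the gate markers, was detected in that class. Detection alone does not separate the classes, as all 5 astrocyte genes were also detected in *C1qa* cells. They summed to 676 CPM there against 8221 CPM in *Aqp4* cells over both libraries, where CPM is defined below. There were 86 untreated and 215 4OH-tamoxifen other neurons, 26 and 64 *Slc17a6* neurons, 14 and 60 *Chat* neurons, 0 and 5 neurons with both, 821 and 1810 *Aqp4* cells, 443 and 1394 *Mog* cells, and 353 and 595 *C1qa* cells. Levels are UMIs per 1000000 UMIs of a class (CPM) with exact Poisson 95% intervals, and shares are cells with at least 1 UMI with exact binomial 95% intervals (Clopper-Pearson). The intervals cover counting error only and say nothing of the spread between mice. Because RNA set free during dissociation gives UMIs in cells that do not express a gene, each value is read against *C1qa* cells, which should lack all of the neuronal members.

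*Slc32a1*, *Gad1*, *Gad2* and *Slc6a5* were concentrated in the other neurons. In untreated other neurons *Slc32a1* reached 826 CPM (761 to 896), and in those of the 4OH-tamoxifen library 579 CPM (536 to 624), against 3.37 and 5.86 CPM in *C1qa* cells. *Gad1* was at 607 CPM (551 to 667) and 298 CPM (267 to 330), against 2.70 and 5.21 CPM. *Gad2* was at 706 CPM (645 to 771) and 559 CPM (517 to 603), against 6 and 20 UMIs in all in the 353 and 595 *C1qa* cells. In both libraries each of these genes lay far above its background, and the intervals were well apart. *Slc6a5* was at 222 CPM (189 to 260) and 293 CPM (263 to 326), with 0 UMIs in 353 untreated *C1qa* cells, which allows up to 2.02 CPM, and 5.21 CPM in the 4OH-tamoxifen library. The UMI counts come from the 3′ ends of transcripts, so levels are compared between classes and not between genes. Over both libraries the ratio of other neurons to *C1qa* cells was 145 (85.9 to 266) for *Slc32a1*, 104 (59.2 to 202) for *Gad1*, 71.2 (48.4 to 110) for *Gad2* and 101 (50.6 to 234) for *Slc6a5*. By library it was 245 untreated and 98.7 in the 4OH-tamoxifen library for *Slc32a1*, 225 and 57.1 for *Gad1*, and 174 and 42.9 for *Gad2*, and for *Slc6a5* it was 56.3 in the 4OH-tamoxifen library. With *Abat*, 5 of the 7 members with enough UMIs were at least 4-fold higher in other neurons than in *C1qa* cells in both libraries, where 17.9% of the 11749 genes tested were. *Slc6a9* and *Slc6a11* were not, and *Slc6a13* had 1 UMI in 301 other neurons.

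**Figure D1:**
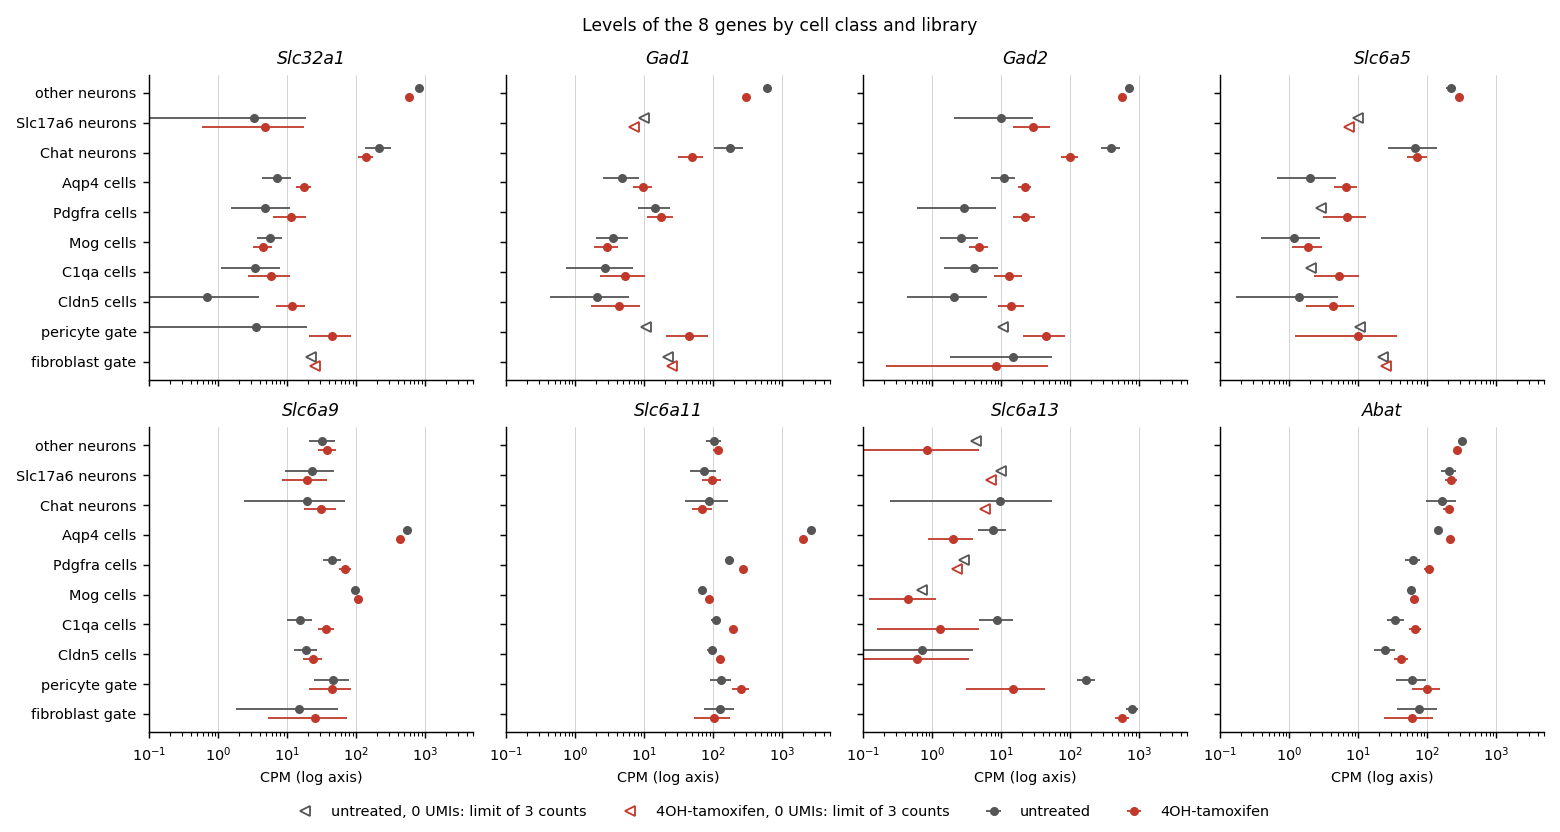
Levels of the 8 genes in 10 cell classes in CPM on a log axis, with exact Poisson 95% intervals, untreated in grey and 4OH-tamoxifen in red; open triangles mark the limit of 3 counts where a class held 0 UMIs. *Slc32a1*, *Gad1*, *Gad2* and *Slc6a5* peak in other neurons (*Slc32a1* at 826 and 579 CPM), *Slc6a11* and *Slc6a9* in *Aqp4* cells (*Slc6a11* at 2611 and 1991 CPM), *Slc6a13* in the fibroblast gate (784 and 570 CPM), and *Abat* is spread over neurons and *Aqp4* cells.

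By cell, *Slc32a1* was found in 63 of 86 untreated (73.3%, 62.6 to 82.2) and 140 of 215 4OH-tamoxifen other neurons (65.1%, 58.3 to 71.5). The share in *C1qa* cells was 1.48% over both libraries, at a median of 2798 UMIs per cell against 5220 in other neurons. *Gad1* was in 62 and 114 cells (72.1% and 53.0%), *Gad2* in 62 and 135 (72.1% and 62.8%), and *Slc6a5* in 42 and 108 (48.8% and 50.2%), against 0.949%, 2.53% and 0.844% of *C1qa* cells. Thinning every cell to 2000 UMIs, which left out 11 other neurons and 194 *C1qa* cells that were shallower, brought the shares over both libraries to 61.4%, 41.0%, 55.2% and 32.1% in other neurons, and to 0.928% for *Slc32a1* and 1.59% for *Gad2* in *C1qa* cells. The shares depend on how neurons were gated. With 1 UMI of a class marker required and 0 of every other class marker, 37.0% of other neurons had *Slc32a1* and 23.5% had *Slc6a5*, and with a panel of neuronal markers 83.4% and 57.1% did.

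Many cells with inhibitory genes lay outside the gates. Of 655 cells with *Slc32a1*, 203 were other neurons and 291 (44.4%) were in no gate. Among cells with at least 2 *Slc32a1* UMIs, 185 were other neurons and 163 ungated, at a median of 3885 UMIs. Of these 163, 157 had *Gad1* or *Gad2*, 92 had *Slc6a5*, and 126 fell short on all 6 class markers, with 1 or 2 *Snap25* UMIs in 99 and none in 30 of the 163. The values that follow concern the gated cells.

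At full depth GAD enzymes and GlyT2 occurred mostly in the same neurons. *Gad1* or *Gad2* was in 202 of 301 other neurons, and *Slc6a5* was in 142 of these 202 (70.3%, 63.5 to 76.5) but in 8 of the 99 without *Gad* (8.08%, 3.55 to 15.3). Of these 99, 88 had none of the 4 inhibitory genes, and 66 of the 88 had *Slc18a3* or *Slc5a7*, genes of cholinergic neurons. Among *Slc32a1*+ cells the contrast was not seen, as *Slc6a5* was in 140 of the 194 with *Gad* and in 6 of the 9 without. Read the other way, 142 of 150 *Slc6a5*+ neurons had *Gad* (94.7%, 89.8 to 97.7). Both libraries showed this, as *Gad* was missing from 2 of 42 untreated and 6 of 108 4OH-tamoxifen *Slc6a5*+ neurons. VGAT went with either system, as *Slc32a1* was in 194 of 202 *Gad*+ neurons and 146 of 150 *Slc6a5*+ neurons, and in 3 of 91 with neither.

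At full depth the 203 *Slc32a1*+ other neurons held more mixed cells than cells with *Gad* alone, an order that turned when cells were thinned to one depth. *Gad* and *Slc6a5* were both found in 140 cells (69.0%, 62.1 to 75.3), *Gad* without *Slc6a5* in 54 (26.6%, 20.7 to 33.2), *Slc6a5* without *Gad* in 6 (2.96%, 1.09 to 6.32) and neither in 3. In untreated cells the counts were 40, 21, 2 and 0 of 63, and in 4OH-tamoxifen cells 100, 33, 4 and 3 of 140. Cells with *Gad* alone were somewhat shallower than mixed cells, with medians of 4808 and 5632 UMIs. The median of summed *Gad* UMIs in cells with *Gad* alone and in mixed cells was 10 and 14 untreated, and 8 and 6.5 in the 4OH-tamoxifen library. *Slc32a1* was at 1179 and 961 CPM untreated and at 1208 and 858 CPM in the 4OH-tamoxifen library, higher in the cells with *Gad* alone in both.

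The 6 *Slc32a1*+ cells with *Slc6a5* and no *Gad* were few but not uniformly shallow. The 2 untreated ones had 1 *Slc6a5* UMI each at 2704 and 3426 UMIs in all. The 4 in the 4OH-tamoxifen library had 2 to 9 *Slc6a5* UMIs at 2930 to 11083 UMIs in all. Among the 210 other neurons with *Gad* or *Slc6a5* UMIs, 26 had more *Slc6a5* than summed *Gad* UMIs, 2 of 65 untreated and 24 of 145 from the 4OH-tamoxifen library. This counts UMIs and does not rank the levels of different genes.

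**Figure D2:**
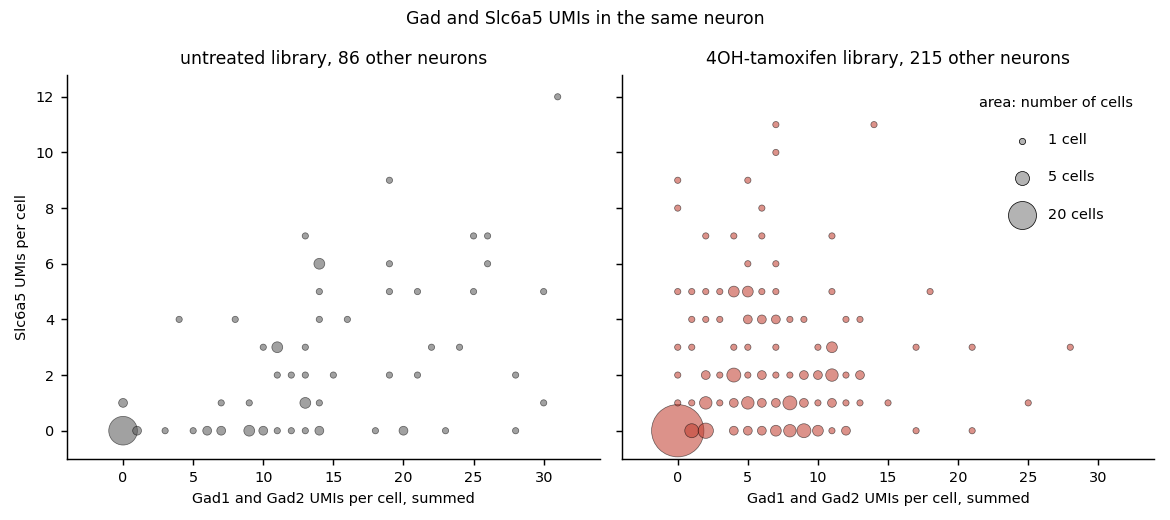
Summed *Gad1* and *Gad2* UMIs (x axis) against *Slc6a5* UMIs (y axis) of each other neuron, with circle area giving the number of cells at that point. Most cells off the origin hold both, the row at 0 *Slc6a5* UMIs holds the *Gad*-only cells, and the column at 0 *Gad* UMIs holds the 2 untreated and 6 4OH-tamoxifen cells with *Slc6a5* alone.

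Depth bore on the mixed share. Of the *Slc32a1*+ other neurons thinned to 2000 UMIs, 65 of 178 were mixed (36.5%, 29.4 to 44.0) and 95 had *Gad* without *Slc6a5* (53.4%, 45.8 to 60.9). In the untreated library 10 of 51 were mixed and 38 had *Gad* alone, and in the 4OH-tamoxifen library the counts were 55 and 57 of 127. At 2000 UMIs per cell, *Slc6a5* was found in 42.4% (35.2 to 49.9) of *Gad*+ neurons, while 83.9% (74.8 to 90.7) of *Slc6a5*+ neurons still had *Gad*. With 2 UMIs required, 53.4% of *Gad*+ neurons had *Slc6a5*. The median *Slc32a1*+ neuron had 2 *Slc6a5* UMIs against 8 summed *Gad* UMIs.

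GAD67 and GAD65 were found together in most cells. Of 203 *Slc32a1*+ other neurons, 170 had both *Gad1* and *Gad2* (83.7%, 77.9 to 88.5), 22 had *Gad2* alone and 2 had *Gad1* alone. All 22 with *Gad2* alone were in the 4OH-tamoxifen library, where 109 of 140 had both (77.9%, 70.1 to 84.4), against 61 of 63 untreated cells (96.8%, 89.0 to 99.6). The untreated cells were deeper, with a median of 8811 against 4891 UMIs. At 2000 UMIs per cell, *Gad1* was in 39 of 55 untreated *Gad2*+ other neurons (70.9%, 57.1 to 82.4) and 56 of 105 in the 4OH-tamoxifen library (53.3%, 43.3 to 63.1), so that the intervals overlapped. Of the *Gad* UMIs in other neurons, *Gad1* made up 429 of 928 in untreated cells (46.2%, 43.0 to 49.5) and 350 of 1007 in the 4OH-tamoxifen library (34.8%, 31.8 to 37.8). *Gad1-ps*, a pseudogene that could share reads with *Gad1*, had 3 UMIs in all cells against 1588 for *Gad1*.

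Subtype genes divided the 213 other neurons with any of the 4 inhibitory genes into groups that, over both libraries, differed most in the share with *Slc6a5*. In the 4OH-tamoxifen library *Gad1* differed as widely, from 47.6% in *Pvalb* to 100% in *Cck* cells. *Slc6a5* there ran from 43.8% in *Cck* to 93.3% in *Ndnf* cells. *Sst* (somatostatin) was in 96 cells, of which 78 had *Slc6a5* (81.3%, 72.0 to 88.5) and 94 had *Gad2*. *Pvalb* (parvalbumin) was in 24 cells, of which 22 had *Slc6a5* (91.7%, 73.0 to 99.0) and 12 had *Gad1* (29.1% to 70.9%). *Cck* (cholecystokinin) was in 30 cells, of which 10 had *Slc6a5* (33.3%, 17.3 to 52.8) and 29 had *Gad1* (96.7%, 82.8 to 99.9). Over both libraries the *Cck* interval for *Slc6a5* lay below those of *Sst* and *Pvalb*, at medians of 5617, 5575 and 5452 UMIs per cell. By library, 3 of 14 untreated *Cck* cells had *Slc6a5* (21.4%, 4.66 to 50.8) and 7 of 16 in the 4OH-tamoxifen library (43.8%, 19.8 to 70.1), and in the latter the interval overlapped those of *Sst* (69.5 to 89.9) and *Pvalb* (69.6 to 98.8). In the untreated library the *Cck* interval overlapped that of *Pvalb* (3 of 3 cells, 29.2 to 100) but not that of *Sst* (63.6 to 92.8). *Slc32a1* was at 1206 CPM (1057 to 1371) in *Cck* cells and 867 CPM (796 to 943) in *Sst* cells, with *Ndnf* cells between at 1079 CPM (932 to 1242) and overlapping both.

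*Reln* (reelin, 55 cells), *Calb2* (calretinin, 17), *Nos1* (neuronal nitric oxide synthase, 31) and *Ndnf* (22) fell between, with *Slc6a5* in 78.2%, 76.5%, 71.0% and 68.2% of cells. These groups share cells, as 33 had both *Sst* and *Reln* and 10 both *Sst* and *Pvalb*, whereas none had both *Pvalb* and *Cck* and 2 both *Sst* and *Cck*. At least 1 UMI of a subtype gene placed a cell in its group, with no allowance for free RNA. In *Sst* cells *Slc6a5* was in 26 of 32 untreated and 52 of 64 4OH-tamoxifen cells, at medians of 9652 and 4934.5 UMIs. The shares were far apart in *Ndnf* cells, where *Slc6a5* was in 1 of 7 untreated (14.3%, 0.361 to 57.9) and 14 of 15 4OH-tamoxifen cells (93.3%, 68.1 to 99.8). Of the 54 *Slc32a1*+ cells with *Gad* alone, 18 had *Cck*, 16 had *Sst* and 1 had *Pvalb*.

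**Figure D3:**
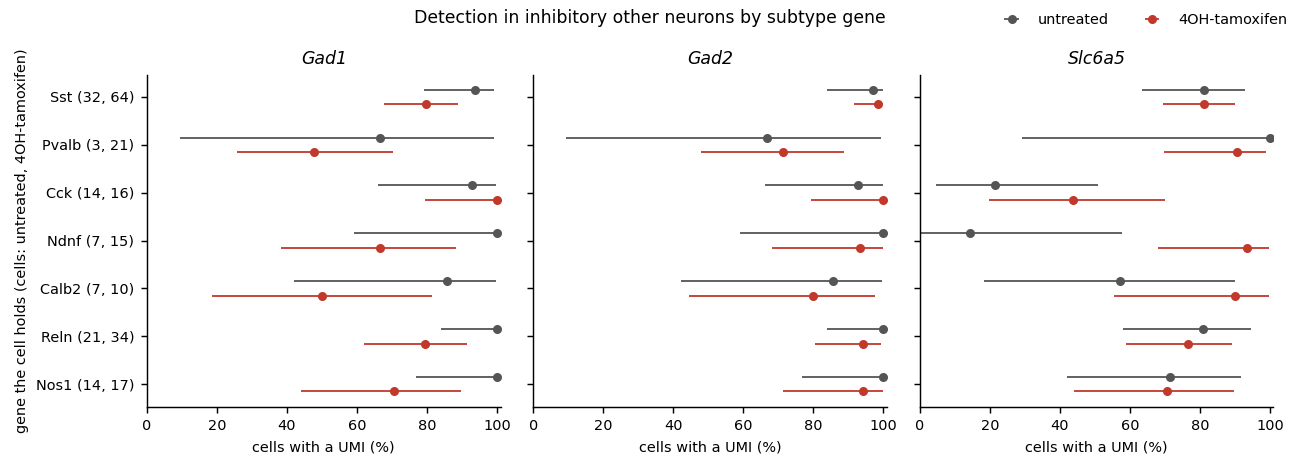
Percent of inhibitory other neurons with *Gad1*, *Gad2* and *Slc6a5*, by the subtype gene they hold, with exact binomial 95% intervals and cell numbers of each library beside the gene. Over both libraries *Gad1* is lowest in *Pvalb* cells (12 of 24), and *Slc6a5* is lowest in *Cck* cells (10 of 30) and in the 7 untreated *Ndnf* cells (1 of 7).

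Of the other transmitter classes, *Slc17a6* neurons held few UMIs of these genes and *Chat* neurons held more. In 90 *Slc17a6* neurons there were 0 UMIs of *Gad1* and of *Slc6a5*, for each of which 3 counts would be a share of 3.33% of cells with a UMI, and 3 cells with *Slc32a1*. *Gad2* had 15 UMIs in 9 of the 90 (10.0%, 4.68 to 18.1), 1 untreated and 8 from the 4OH-tamoxifen library. Its level of 20.9 CPM was 2.43 times (1.19 to 4.75) that in *C1qa* cells, with 1 to 3 UMIs per cell, but within each library the interval held 1 (0.398 to 11.5 untreated, 0.986 to 4.75 in the 4OH-tamoxifen library). *Aqp4* cells had a like 17.7 CPM, and after thinning it was in 4.44% (1.22 to 11.0) of *Slc17a6* neurons. In *Chat* neurons *Slc32a1* was at 212 CPM in the untreated and 138 CPM in the 4OH-tamoxifen library, over both 32.4 times (18.4 to 61.5) the level in *C1qa* cells. *Gad1* and *Gad2* were at 17.5 times (9.05 to 36.4) and 17.1 times (10.9 to 27.5), with library ratios of 64.2 and 9.31 for *Gad1* and 95.1 and 7.60 for *Gad2*. Of 74 *Chat* neurons, 17 had at least 1 of the 4 inhibitory genes (23.0%). The 14 of these with *Gad* had a median of 0 UMIs of each of the cholinergic genes *Slc18a3* and *Slc5a7*, and the 57 *Chat* neurons with none of the 4 had medians of 9 and 13. At least 1 UMI of either gene was in 8 of the 14 (57.1%) and in 54 of the 57 (94.7%). Conversely, 88 of 301 other neurons had none of the 4 genes, and *Slc18a3* or *Slc5a7* was in 66 of these 88 against 45 of the 213 with any of the 4 (21.1%). The class without *Slc17a6* and *Chat* therefore still held cells with cholinergic transcripts, and the cholinergic panel summed to 372 and 1563 CPM in other neurons of the untreated and the 4OH-tamoxifen library.

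Between the 2 libraries the *Gad1* level was lower and the *Slc6a5* level higher in the 4OH-tamoxifen library, by intervals that cover counting error only. Over all other neurons the 4OH-tamoxifen to untreated ratio was 0.490 (0.424 to 0.566) for *Gad1*, 0.701 (0.626 to 0.784) for *Slc32a1*, 0.791 (0.703 to 0.891) for *Gad2* and 1.32 (1.09 to 1.61) for *Slc6a5*. Of the 7 members tested, 1 (*Gad1*) was past 2-fold, where 7.25% of 9275 genes were. The *Slc32a1*+ cells, 63 and 140, leave out most cells with cholinergic transcripts, and there *Gad2* was at 866 CPM untreated and 857 CPM in the 4OH-tamoxifen library (ratio interval 0.879 to 1.12). *Gad1* was at 744 and 461 CPM in the same cells (0.620, 0.536 to 0.716), and *Slc6a5* at 273 and 447 CPM (1.64, 1.35 to 1.99).

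Within subtype genes the *Gad1* ratio was 0.662 (0.532 to 0.824) in *Sst* cells and 1.00 (0.705 to 1.42) in *Cck* cells, at 733 and 736 CPM in the latter. It was past 2-fold in *Pvalb* cells (0.251, 0.143 to 0.435, with 3 untreated cells) and *Ndnf* cells (0.338, 0.20 to 0.557), and from 0.630 to 0.735 in *Nos1*, *Reln* and *Calb2* cells. The *Slc6a5* ratio was 1.5 (1.17 to 1.94) in *Sst* cells, 3.53 (1.28 to 11.2) in *Cck* cells and 7.28 (3.17 to 20.5) in *Ndnf* cells, where all 6 untreated UMIs lay in 1 cell. It was 1.88 (1.18 to 3.02) in *Nos1* cells and 3.08 (1.56 to 6.53) in *Calb2* cells, and the interval held 1 in *Reln* cells (1.16, 0.846 to 1.59) and *Pvalb* cells (1.32, 0.803 to 2.28). At 2000 UMIs per cell, *Slc6a5* was found in 16 of 60 untreated *Gad*+ neurons (26.7%, 16.1 to 39.7) and 62 of 124 4OH-tamoxifen *Gad*+ neurons (40.9% to 59.1%). Median depth was 7628.5 and 4725 UMIs in other neurons, and its part, and that of the cholinergic cells, in the *Gad1* difference was not tested. With at most 10% mitochondrial UMIs, which left 40 and 126 other neurons, the *Gad1* ratio was 0.724, and with a panel gate it was 0.719, so that *Gad1* was no longer past 2-fold. Under the same limit the direction turned for *Slc32a1* (660 and 720.4 CPM) and *Gad2* (631 and 806 CPM), and held for *Slc6a5* (181 and 302 CPM).

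**Figure D4:**
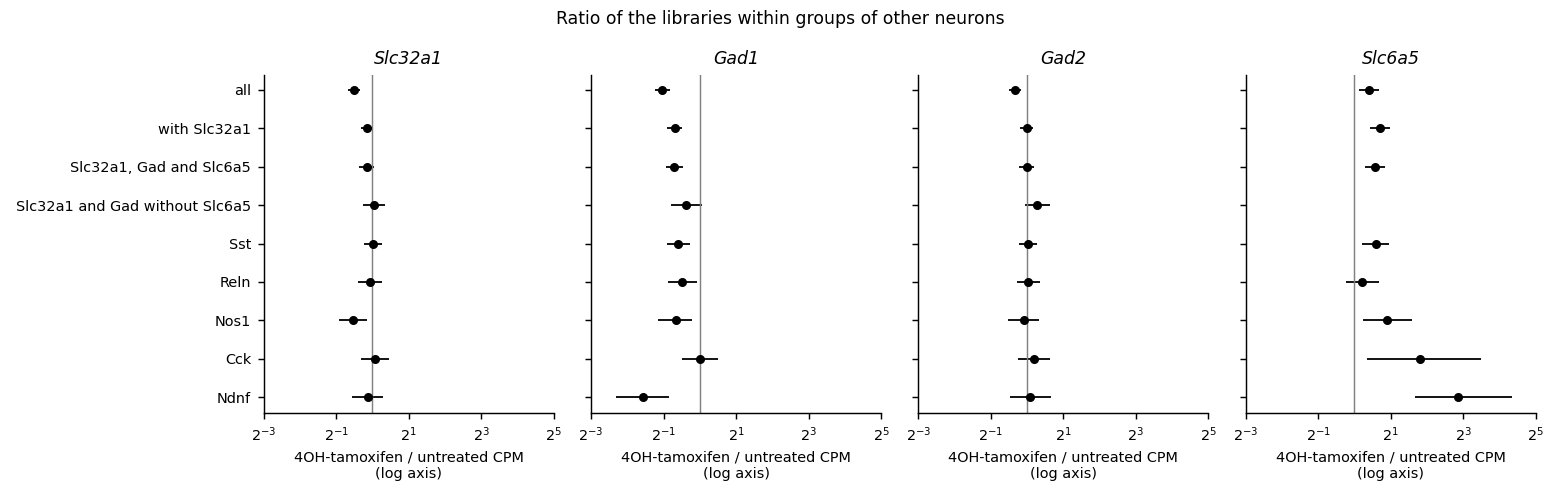
Ratio of CPM in the 4OH-tamoxifen library to CPM in the untreated library, on a log axis, within groups of other neurons, with exact conditional 95% intervals and a line at equality. In cells with *Slc32a1*, the *Gad2* interval (0.879 to 1.12) holds equality, *Gad1* lies below it (0.620) and *Slc6a5* above it (1.64), while *Gad1* in *Cck* cells is at 1.00.

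*Slc6a11*, which encodes GAT3, was the member with the most UMIs in *Aqp4* cells. It was found in 769 of 821 untreated (93.7%, 91.8 to 95.2) and 1594 of 1810 4OH-tamoxifen *Aqp4* cells (88.1%, 86.5 to 89.5), with medians of 7 and 4 UMIs per cell. Its level was 2611 CPM (2548 to 2676) and 1991 CPM (1948 to 2035), which was 23.9 times (20.4 to 28.1) and 10.3 times (9.16 to 11.6) that in *C1qa* cells of the same library. *Slc6a9*, which encodes GlyT1, was at 547 CPM (518 to 576) and 439 CPM (419 to 460), or 35.2 times (23.4 to 55.8) and 11.8 times (9.08 to 15.7) *C1qa* cells, and was found in 570 and 1003 *Aqp4* cells (69.4% and 55.4%). These were the 2 of 8 members at least 4-fold higher in *Aqp4* than in *C1qa* cells in both libraries, where 8.85% of 12785 genes were. The level of *Slc6a11* depended on the mitochondrial limit, as *Aqp4* cells with at most 10% mitochondrial UMIs had 1462 CPM against 2228 CPM over all. Under that limit (196 and 650 cells) *Slc6a11* was at 1671 and 1368 CPM and *Slc6a9* at 345 and 326 CPM in the untreated and 4OH-tamoxifen libraries.

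The transporters occurred in the same cells. *Slc6a11* was in 1514 of 1573 *Slc6a9*+ *Aqp4* cells (96.2%, 95.2 to 97.1), and *Slc6a9* was in 64.1% (62.1 to 66.0) of *Slc6a11*+ cells but in 22.0% (17.2 to 27.5) of those without it. After thinning to 2000 UMIs these shares were 96.3%, 61.6% (59.1 to 64.1) and 14.8% (10.5 to 19.9). In *C1qa* cells thinned alike, *Slc6a9* was in 6.57% of cells with *Slc6a11* and 4.86% of those without.

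Outside *Aqp4* and *Pdgfra* cells, no other gated class had more *Slc6a11* than *C1qa* cells beyond counting error over both libraries. It was in 142 of 301 other neurons (47.2%), but its 112 CPM (97.4 to 128) there was 0.736 times (0.623 to 0.869) that in *C1qa* cells (152 CPM), and after thinning the shares were 21.0% and 25.2%. *Pdgfra* cells held slightly more, at 228 CPM or 1.5 times (1.32 to 1.70) *C1qa* cells, and the panel of 5 astrocyte genes was also higher there, at 994 against 676 CPM, its part being not tested. *Slc6a9* in untreated other neurons, at 32.5 CPM, was 2.1 times (1.12 to 3.91) the level in *C1qa* cells, but in the 4OH-tamoxifen library, at 38.3 CPM, it was 1.03 times (0.681 to 1.55). *Mog* cells had *Slc6a9* above background, at 97.1 CPM (88.0 to 107) untreated and 106 CPM (99.5 to 113) with 4OH-tamoxifen, 6.26 times (4.11 to 9.98) and 2.86 times (2.19 to 3.8) the *C1qa* level. Its thinned share was 17.2% (15.4 to 19.0) in *Mog* cells, 5.57% (4.04 to 7.46) in *C1qa* cells and 54.9% (52.5 to 57.2) in *Aqp4* cells.

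Low counts of the neuronal members above the *C1qa* level were found in several non-neuronal classes, for example of *Gad1* in *Pdgfra* cells. Its UMIs were in 15 of 305 untreated (4.92%, 2.78 to 7.98) and 21 of 644 4OH-tamoxifen cells (3.26%, 2.03 to 4.94), at 14.3 and 17.3 CPM, and over both libraries at 4.02 times (2.06 to 8.45) the level in *C1qa* cells. *Gad2* in the same cells was at 1.56 times (0.902 to 2.73) and *Slc6a5* at 1.43 times (0.489 to 4.25). In untreated *Pdgfra* cells *Gad1* had 15 UMIs and *Gad2* 3, but in those of the 4OH-tamoxifen library the counts were 23 and 29, a *Gad1* share of 44.2% (30.5 to 58.7). In the pericyte gate *Gad1* had 9 UMIs in 4 cells of the 4OH-tamoxifen library, 8.60 times (2.95 to 25.6) the *C1qa* level, and 0 in untreated cells, and *Slc32a1* was at 7.65 times (2.69 to 21.7) and 1.04 times (0.0220 to 9.30). The panel of 6 neuronal genes was at 1405 CPM in the 4OH-tamoxifen pericyte gate against 277 CPM untreated, and at 451 CPM in 4OH-tamoxifen *C1qa* cells, and its part in these counts was not tested. In *Pdgfra* cells that panel was at 296 and 637 CPM. In *Aqp4* cells the *Gad1* interval held 1 in each library (0.540 to 7.57 and 0.852 to 4.58) but not over both (1.96 times, 1.03 to 4.04). *Gad2* there was at 2.67 times (1.08 to 7.91) untreated and 1.69 times (1.03 to 2.89) in the 4OH-tamoxifen library. *Slc32a1* was at 2.14 times (0.764 to 7.36) untreated and 2.95 times (1.47 to 6.72) in the 4OH-tamoxifen library. All of these levels were far below those in other neurons.

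*Slc6a13*, which encodes GAT2, was concentrated in the fibroblast gate, cells with at least 4 UMIs over *Dcn*, *Lum*, *Col1a1*, *Col1a2* and *Col3a1* that either passed the *Pdgfra* gate or, passing no gate, had fewer UMIs of the pericyte panel. It was found in 29 of 34 untreated (85.3%, 68.9 to 95.0) and 29 of 46 4OH-tamoxifen fibroblast gate cells (63.0%, 47.5 to 76.8), at 784 CPM (642 to 950) and 570 CPM (442 to 724). In *C1qa* cells it was at 8.77 and 1.30 CPM, and 13 of the 15 UMIs there lay in 4 of the 7 cells that had 4 or more fibroblast UMIs, with 0.670 CPM in the other 941 cells. *Slc6a13* was also counted in 12 of 198 pericyte gate cells, but 47 of its 52 UMIs there lay in 7 of the 25 cells that had 4 or more fibroblast UMIs. In the other 173 pericyte gate cells it was at 12.5 CPM, against 107 CPM with those 25. The same held in *Aqp4* cells, where 23 of 27 UMIs were in 5 of 19 cells with 4 or more fibroblast UMIs. *Slc6a12*, the related betaine and GABA transporter, was in 2 of the 80 fibroblast gate cells.

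*Abat* was the member spread most evenly over classes that make and classes that clear GABA. It was at 321 CPM (281 to 366) and 270 CPM (241 to 302) in other neurons, 206 CPM (158 to 264) and 221 CPM (178 to 271) in *Slc17a6* neurons, and 164 CPM (95.3 to 262) and 204 CPM (167 to 247) in *Chat* neurons. In *Aqp4* cells it was at 143 CPM (129 to 159) and 215 CPM (201 to 230). Other neurons were 1.54 times (1.39 to 1.71) above *Aqp4* cells over both libraries, although within the 4OH-tamoxifen library the levels lay closer, at 270 and 215 CPM. All of these were above *C1qa* cells, which had 34.4 and 67.1 CPM. With at most 10% mitochondrial UMIs, other neurons were at 309 and 323 CPM and *Aqp4* cells at 129 and 150 CPM. The levels in the 4OH-tamoxifen library were then further apart. The share with *Abat* after thinning was 35.2% (29.7 to 41.0) in other neurons, 35.6% (25.7 to 46.3) in *Slc17a6* neurons and 29.7% (27.5 to 31.9) in *Aqp4* cells, with the 3 intervals overlapping.

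**Figure D5:**
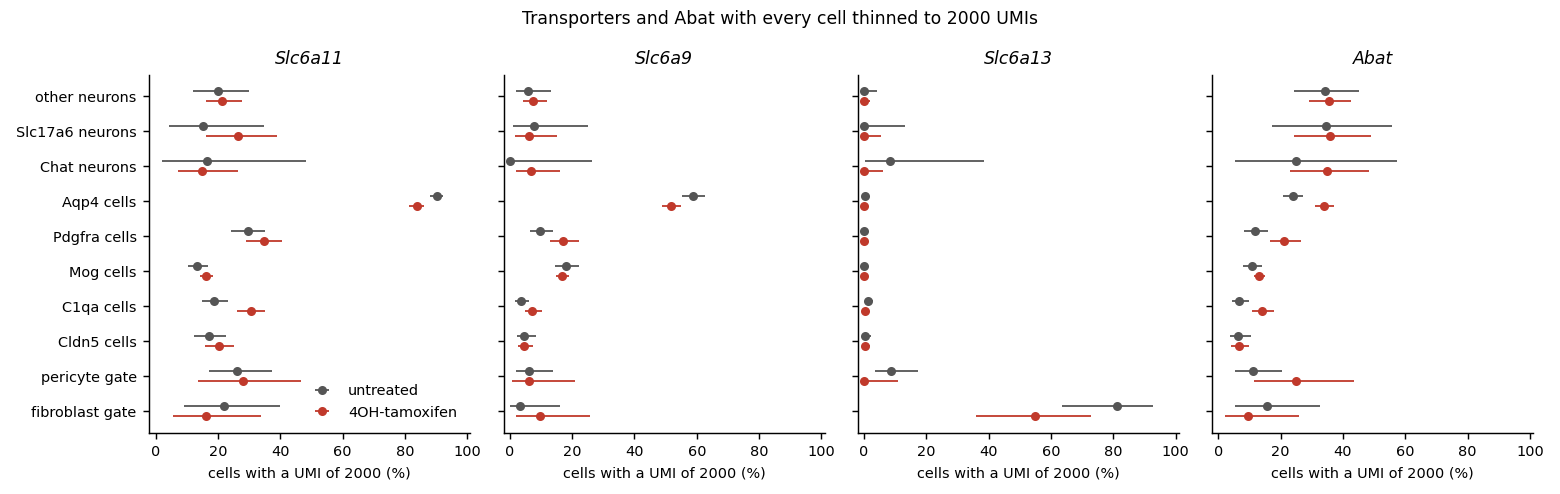
Percent of cells with a UMI of *Slc6a11*, *Slc6a9*, *Slc6a13* or *Abat* in 10 classes after every cell was thinned to 2000 UMIs, with exact binomial 95% intervals, untreated in grey and 4OH-tamoxifen in red. *Slc6a11* (86.6% over both libraries) and *Slc6a9* (54.9%) are highest in *Aqp4* cells, *Slc6a13* stands out in the fibroblast gate, and *Abat* is at 35.2% in other neurons and 35.6% in *Slc17a6* neurons.

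Between the libraries the members in *Aqp4* cells moved by less than 2-fold where they were expressed well above background. The 4OH-tamoxifen to untreated ratio was 0.762 (0.738 to 0.788) for *Slc6a11*, 0.803 (0.748 to 0.862) for *Slc6a9* and 1.5 (1.33 to 1.71) for *Abat*. *Slc32a1*, *Gad1*, *Gad2* and *Slc6a5*, at 2.00 to 22.0 CPM in *Aqp4* cells, had ratios from 2.01 to 3.33, and *Slc6a13* had 0.260, so that 5 of 8 members were past 2-fold where 4.85% of 11783 genes were. The panel of 6 general neuronal genes moved the same way in *Aqp4* cells, from 272 to 585 CPM, and in *C1qa* cells, from 175 to 451 CPM. In *Mog* cells 0 of the 7 members tested were past 2-fold, where 3.33% of 11629 genes were. Past 2-fold elsewhere were *Slc32a1* (2.36) and *Gad2* (7.60) in *Pdgfra* cells, where 529 of 9879 genes were. In *C1qa* cells *Gad2* (3.22) and *Slc6a9* (2.39) were, as were 943 of 9475 genes. In *Cldn5* cells *Slc32a1* (16.6) and *Gad2* (6.70) were, as were 525 of 9728 genes.

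A further 22 genes of GABA and glycine supply and breakdown gave the setting of the 8. Of the 19 with at least 20 UMIs over other neurons and *Aqp4* cells, 3 were higher in other neurons with an interval above 1, where 40.7% of 12545 genes were, 11 were lower, where 24.8% were, and 5 had intervals that held 1. *Slc6a14* had no UMIs in either class. The median ratio over the 21 with any UMIs was 0.278, against 1.17 over the 12545 genes. Among the higher genes was *Slc38a1*, a neuronal glutamine transporter (2.44 times). *Slc6a6*, a taurine transporter, was higher than in *Aqp4* cells (5.20 times, 4.04 to 6.70) but at 0.967 times (0.790 to 1.18) the level in *C1qa* cells, and was at 833 CPM in *Cldn5* cells against 85.0 CPM in other neurons. Among the genes with high levels in *Aqp4* cells were glutamine synthetase *Glul* (727 CPM), the neutral amino acid exchanger *Slc7a10* (703 CPM) and the glutamine transporter *Slc38a3* (366 CPM).

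The enzymes of serine synthesis, from which glycine is made, were lower in other neurons, *Phgdh* at 0.0926 times (0.0602 to 0.136) and *Psat1* at 0.230 times (0.172 to 0.302) the level in *Aqp4* cells. *Psat1* was highest in *Mog* cells (298 CPM) and *Phgdh* in *C1qa* cells (192 CPM). The glycine decarboxylase *Gldc*, the first enzyme of glycine breakdown, had 1 UMI in 301 other neurons and 81 in *Aqp4* cells. *Aldh5a1*, which completes the breakdown of GABA after *Abat*, did not differ beyond counting error between other neurons and *Aqp4* cells (1.11 times, 0.955 to 1.28). *Slc38a5*, a glutamine and glycine transporter, was at 296 CPM in *Cldn5* cells and 0 UMIs in other neurons.

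Likeness to the members across 8 classes in each library, 16 points in all, was measured by Pearson's r on log2(CPM + 1) among 7546 genes. *Slc6a11* was most like *Slc7a10* (r = 0.985), *Mlc1* (0.984) and *Fgfr3* (0.982). *Slc6a13* was most like *Col3a1* (0.970), *Prelp* and *Fmod*, and *Slc6a9* was most like *Ttyh1* (0.962). *Col3a1* helps to define the fibroblast gate, which was among the 8 classes, so its place beside *Slc6a13* was largely set by the gate. *Slc32a1* was most like *Atp6v0a1* (0.972) and had r = 0.953 with *Gad1*, 0.945 with *Slc6a5* and 0.851 with *Gad2*. Other neurons were the only neuronal class among the 8, so likeness to *Slc32a1* does not separate inhibitory from general neuronal genes. The points of a library share its depth and its free RNA, and those of a class share its makeup, so these values describe the classes and no more.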

How the data were processed

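Per the labels and the submitters' processing notes, the authors demultiplexed reads with bcl2fastq 2.18.0.12 and aligned them to mm10 (GRCm38) with Cell Ranger 2.2.0, and deposited 1 filtered matrix per library holding a raw UMI count for each gene in each cell. The libraries held 18496942 and 34704167 UMIs. Cells marked by Scrublet (scanpy 1.11.5, 6 and 544 cells), with under 800 genes, over 50 hemoglobin UMIs or over 20% mitochondrial UMIs were removed. Only 0.159% of untreated barcodes were marked, so doublets may remain. UMIs were summed by library and marker gate. Intervals are exact at 95% (scipy 1.17.1), conditional on the summed count for ratios. The ratio intervals were tried on simulated Poisson counts only, which hold no spread between cells or mice, so this checks the calculation alone. Genes with at least 20 UMIs over both libraries entered counts of genes past 2-fold or 4-fold. With 1 library per condition no test was run. Named genes are the 8 members, 22 fixed pathway genes, 7 subtype genes and the 3 genes most like each member, of which some are not reported here. Members and lists were chosen with earlier results of these data known. The library comparison in other neurons (86 untreated cells, under a planned minimum of 100), the 4-fold counts, the split by fibroblast UMIs, ratios within subtype cells, the mitochondrial limit by library, glial co-detection and the promoter motifs were added after seeing the data.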

Additional observations from a re-analysis of the deposited data

How the results depend on the processing

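Of 123 alternatives over 17 results, 67 left the value within its counting interval or, for counts of genes, within 1.5 times, and 56 moved it. With 1 UMI of a class marker and 0 of the others, *Gad*, *Slc32a1* and *Slc6a5* were in 37.65%, 37.04% and 23.46% of other neurons, *Slc6a5* was in 57.38% of *Gad*+ neurons, *Slc6a11*, *Slc6a9* and *Abat* in *Aqp4* cells were at 2020, 431.4 and 173.3 CPM, and *Slc6a13* in the fibroblast gate at 839.9 CPM. With stricter markers the values were 57.48% for *Gad*, 58.88% for *Slc32a1*, 78.86% for *Slc6a5* among *Gad*+ neurons, 2413 CPM for *Slc6a11*, 515.4 CPM for *Slc6a9* and 0.3594 for the *Gad1* ratio of the libraries. With marker panels they were 86.83%, 83.39% and 57.05% for *Gad*, *Slc32a1* and *Slc6a5*, 62.45% for *Slc6a5* among *Gad*+ neurons, 2600 and 559.2 CPM for *Slc6a11* and *Slc6a9*, and 0.7194 for the *Gad1* ratio. Thinning to 2000 UMIs gave 61.38% for *Slc32a1*, 32.07% for *Slc6a5*, 42.39% for *Slc6a5* among *Gad*+ neurons, 83.87% for *Gad* among *Slc6a5*+ neurons, and 2296 and 501.7 CPM for *Slc6a11* and *Slc6a9*. With 2 UMIs required, *Slc32a1* was in 61.46%, *Slc6a5* in 36.54%, and *Slc6a5* in 53.4% of *Gad*+ neurons. A minimum of 1200 genes gave 1885, 408.5 and 174.4 CPM for *Slc6a11*, *Slc6a9* and *Abat*, and at most 10% mitochondrial UMIs gave 1462, 331.4 and 143.3 CPM and a *Gad1* ratio of 0.7244. Without doublet removal *Slc6a11* was at 2177 CPM, and as a mean over cells *Slc6a11* and *Slc6a9* were at 2341 and 502.7 CPM. In the untreated library alone *Gad* and *Slc32a1* were each in 73.26% of other neurons and *Slc6a11*, *Slc6a9* and *Abat* were at 2611, 546.6 and 143 CPM in *Aqp4* cells, and in the 4OH-tamoxifen library alone at 1991, 438.8 and 215 CPM, with *Slc6a13* at 570.1 CPM. With at least 50 UMIs, genes past 2-fold between the libraries numbered 281 in other neurons (672 with 20), 267 in *Aqp4* cells (571), 168 in *Pdgfra* cells (529), 126 in *Mog* cells (387), 354 in *C1qa* cells (943) and 161 in *Cldn5* cells (525). Without cells of 4 or more fibroblast UMIs, *Slc6a13* in the pericyte gate was at 12.5 CPM. The cause of these moves was not tested. No paired analysis was possible because each condition has 1 library and no test was run. Depth limits calls of absence, as thinning lowered the shares of other neurons with *Abat* to 35.2%, *Gad1* to 41.0% and *Slc6a5* to 32.1%.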
